A study of Mus musculus with 4 samples.

Results

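The transcripts of 10 sequence-specific splicing regulators were followed in cultured mouse spermatogonial stem cells in which the microRNA miR-202 can be knocked out by doxycycline. The 10 genes were Rbfox2, Mbnl1, Mbnl2, Mbnl3, Celf1, Celf2, Ptbp1, Ptbp2, Qk and Rbm38, taken by symbol from the 22552 gene symbols in the deposited tables. All 10 were listed, each on 1 line, and all 10 reached the mean of 1 FPKM that put 11924 genes into the test. FPKM is scaled to transcript length and to the mapped fragments of a library, so levels of different genes can be set beside each other.

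The study holds 4 libraries of total RNA, 2 from cells kept 2 days with 10 µg/ml doxycycline and 2 from cells kept without it, all first plated on laminin. The cells are single-cell clones, iKO-SC-1 and iKO-SC-2, of testis origin from male DBA/C57 F1 mice aged 5 to 7 days. The genotype is given as wild type throughout, both groups carry the inducible construct, and the sources used here do not give its promoter or how it removes miR-202. No doxycycline-treated cells without the construct were analysed here, so effects of the drug and of the knockout cannot be told apart. Mir202 was listed at 0 FPKM in all 4 libraries, 1 of 605 among the 606 symbols of that form that stood at 0 throughout, so that row checks neither the knockout nor the labels. The germ cell markers were abundant: all 15 were measured, their FPKM summed to between 1669 and 1807 in a library, and Uchl1 led with 390 to 488. Fibroblast feeder markers summed to 194 and 176 FPKM with doxycycline and 190 and 163 without, with Fn1 highest at 53.3 to 56.7. Read depth is unknown. Whole-read steps among values under 0.1 FPKM gave depths of 1.22, 1.33 and 1.56 for doxycycline replicate 2, untreated replicate 1 and untreated replicate 2, relative to doxycycline replicate 1. In each of these libraries 74.1% to 77.2% of the low values used lay on a whole-read ratio. By this estimate both untreated libraries were deeper than both treated ones, so depth and treatment cannot be told apart for low values.

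These proteins bind short motifs in pre-mRNA and decide, from where they sit relative to an exon, whether it is kept or skipped. RBFOX, muscleblind (MBNL) and CELF proteins are best known from muscle, heart and brain, where MBNL and CELF often act on the same exons in opposite directions. PTB proteins mostly repress exons. MBNL proteins repress splicing patterns typical of embryonic stem cells, and Ptbp2, Celf1 and Qk are each needed for normal sperm production in mice. Protein and exon use were not measured here, and FPKM per gene sums over the isoforms of a gene.

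The study asks about miR-202, so matches to its seeds in the 10 genes are given first. The mature arms, from RefSeq (GRCm38.p6), lie on the minus strand of chromosome 7 at chr7:139957695-139957716 for the 3p arm and chr7:139957732-139957752 for the 5p arm. Capitals mark the seed, bases 2 to 8, by which a microRNA pairs with its targets. The arms have different seeds.
mmu-miR-202-3p: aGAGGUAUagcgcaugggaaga
mmu-miR-202-5p: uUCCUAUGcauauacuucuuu

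Matches were sought on the transcript strand of the longest protein-coding 3′ UTR of each gene in GENCODE M21. A match to bases 2 to 8 is ATACCTC for the 3p arm and CATAGGA for the 5p arm. Matches to bases 2 to 7 followed by A were also counted, TACCTCA for the 3p arm and ATAGGAA for the 5p arm. The closing A need not pair with the microRNA. Where both heptamers of an arm overlap they form an octamer and were counted once. Rbfox2 held 4 matches in its 5172 bases, 1 for the 3p arm and 3 for the 5p arm, with 1 octamer for each arm. An octamer for the 3p arm was found in 2.84% of the 10520 tested genes with an annotated 3′ UTR and one for the 5p arm in 3.30%. Octamers for both arms were held by 19 of those genes, or 0.181%, Rbfox2 among them. Among the 543 genes with a 3′ UTR within 20% of its length, 7.55% held a 3p octamer and 9.58% a 5p octamer. Both were held by 2 of the 543, or 0.368%. The counts of genes with both octamers were made because Rbfox2 is the gene of the 10 that holds both. They were not planned, and they do not measure how unusual the 10 genes are. A seed match does not show that a transcript is a target, and targeting was not tested. The sites of Rbfox2 are shown for the same reason. They lie on the minus strand of chromosome 15 (GRCm38) at chr15:77084014-77084043 for the first, whose match starts at base 130 of the 3′ UTR, and at chr15:77082875-77082904 for the second, whose match starts at base 1269. Capitals mark the octamer with its closing A, which in the 3p site does not pair with the first base of the arm.
Rbfox2, 3p octamer: aatacttttttATACCTCActatgttcttt
Rbfox2, 5p octamer: cactccaaagcCATAGGAAtttccatcttc

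Of the 10 genes, 6 had a match to either arm, against 25.6% of the 10520 tested genes with an annotated 3′ UTR. Their 3′ UTRs are long, with a median of 3567 bases against 1146 over those genes, and longer sequence holds more heptamers. Celf1 and Rbm38 each had 1 match to the 3p arm, Mbnl3 had 1 and Celf2 2 to the 5p arm, and Qk had 1 to the 3p arm and 2 to the 5p arm, none of them an octamer. Of these genes only Qk held matches to bases 2 to 8, 1 for each arm. The rest were matches to bases 2 to 7 followed by A. Among genes with a 3′ UTR within 20% of the length, a 3p match was held by 38.3% for Rbfox2, 46.4% for Celf1 and 48.6% for Qk. For a 5p match the shares were 48.4% for Rbfox2, 35.3% for Mbnl3, 59.2% for Celf2 and 58.0% for Qk. The match of Rbm38 is shown because its 3′ UTR, at 925 bases, is the shortest of the 10. Of 1362 genes with a 3′ UTR of similar length, 8.0% held a 3p match. The Rbm38 match lies on the plus strand at chr2:173034578-173034607 (GRCm38) and starts at base 780 of the 3′ UTR. It covers bases 2 to 7 of the arm followed by A, and the base before it does not match base 8.
Rbm38, 3p heptamer: ccctccacaccTACCTCAgggagccagtgt

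Mbnl1, Mbnl2, Ptbp1 and Ptbp2 had no match to either arm in these windows, which says only that the letters are not there. Among genes with a 3′ UTR within 20% of the 2748 bases of Mbnl2, 23.8% held a 3p match and 27% a 5p match.

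The 10 genes spanned a wide range of levels, and their order was nearly the same in every library. Rbm38 was the most abundant at 122 to 129 FPKM, at percentile 97.2 of the tested genes, followed by Ptbp1 at 111 to 119. Celf1 came next at 40.1 to 44.5 FPKM. Qk and Ptbp2 lay together at 27 to 30 FPKM and did not differ beyond their spread, with ranges over the 4 libraries of 27.6 to 29.8 and 27.1 to 29.9. Ptbp2 stood above Qk in both doxycycline libraries and below it in both untreated ones. Rbfox2 followed at 20.1 to 24.8 FPKM, Mbnl2 at 7.93 to 11.6 and Celf2 at 6.18 to 6.52. Mbnl3 and Mbnl1 were lowest, at 3.36 to 3.71 and 3.35 to 3.67, and their ranges overlapped. All other neighbours in this order had ranges that did not overlap.

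**Figure D1:**
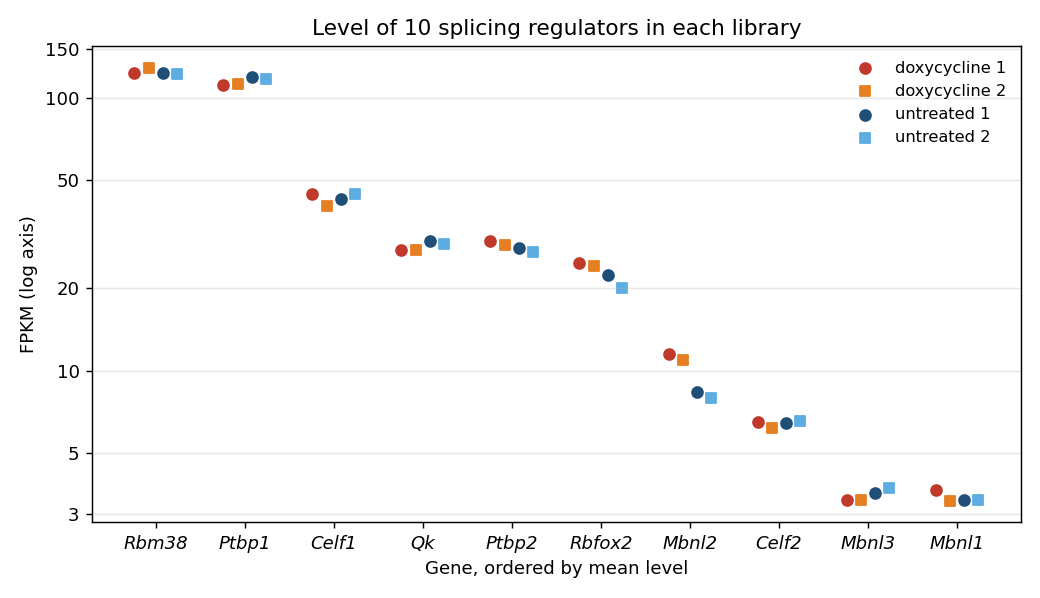
FPKM on a log axis of the 10 genes in each of the 4 libraries, ordered by mean level; each point is 1 library. Rbm38 and Ptbp1 sit above 100 FPKM, Mbnl1 and Mbnl3 between 3.35 and 3.71, and the doxycycline and untreated points separate most clearly for Mbnl2.

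With doxycycline none of the 10 genes passed the test over all genes, and most moved little. In limma's test on log2(FPKM + 1) with Benjamini-Hochberg adjustment, 0 of the 10 had an adjusted p under 0.05, against 0.277% of all tested genes. Mbnl2 and Rbfox2, so 2 of the 10, rose at an unadjusted p under 0.05, against 8.46% of all tested genes higher at that level, and none of the 10 was lower at it. With the replicate number as a block 1 of the 10 rose, Mbnl2, and none fell, against 2.73% of all tested genes that rose. The groups of libraries did not overlap for 7 of the 10, 4 higher and 3 lower with doxycycline, against 23.5% and 24.9% of all tested genes, so such separation was common among genes in general. Rbfox2, Mbnl2, Ptbp2 and Rbm38 were higher in each same-numbered pair, as were 32.8% of all tested genes, and Mbnl3, Ptbp1 and Qk were lower in each, as were 34.0%. The median log2 change of the 10 was 0.0074, with a range from -0.09 to 0.42, and that of all tested genes was -0.0022. The median absolute log2 change was 0.08 for the 10 and 0.07 for all tested genes. Nothing in the labels shows separate animals behind the clones, so p-values cover the spread of these 4 libraries, which may be technical.

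**Figure D2:**
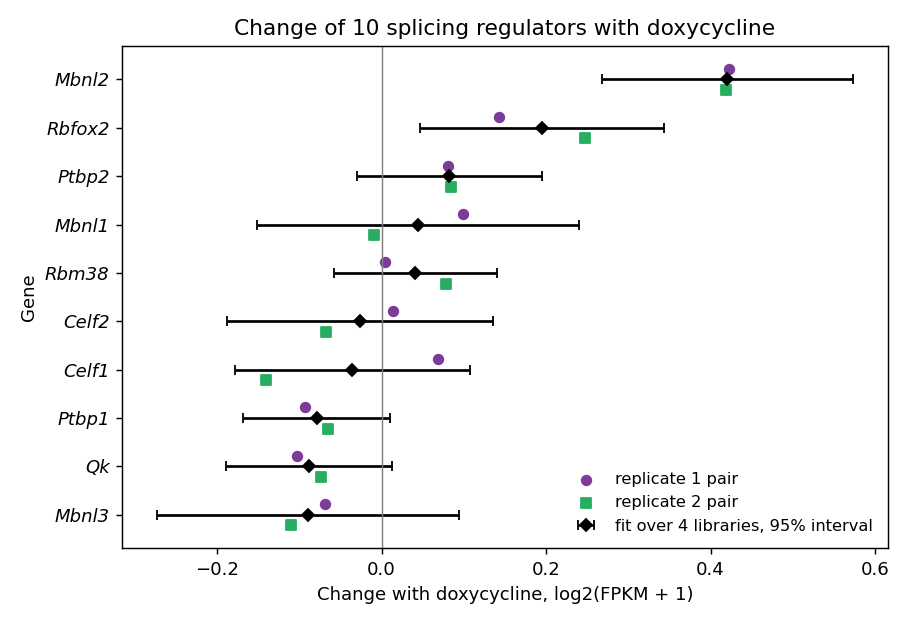
Change of each gene with doxycycline on the log2(FPKM + 1) scale, with the fitted value and its 95% interval from limma (diamonds and bars) and the change within each same-numbered pair (circles for replicate 1, squares for replicate 2). The interval lies above 0 for Mbnl2 (0.27 to 0.57) and Rbfox2 (0.05 to 0.34) and includes 0 for the other 8 genes.

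Rbfox2, the RBFOX protein of widest expression and a regulator of exons in the epithelial to mesenchymal transition, was at 24.8 and 24.1 FPKM with doxycycline in replicates 1 and 2, and at 22.4 and 20.1 without it. Both doxycycline libraries lay above both untreated ones, and the untreated libraries differed from each other by more than the treated ones did. The ratio of means was 1.15, with 1.11 in replicate 1 and 1.196 in replicate 2. The log2 change of Rbfox2 was 0.20 ± 0.06 (SE), with a limma adjusted p of 0.238, and 0.0719 with the block. Without untreated replicate 2, the library with the lowest level, the log2 change was 0.12, and without untreated replicate 1 it was 0.27. Its locus spans chr15:76909420-77137483 (mm9) with 2 annotated start sites in the deposited table. The other RBFOX genes were barely detected: Rbfox1 lay between 0.0368 and 0.125 FPKM and Rbfox3, a marker of neurons, between 0.130 and 0.376.

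The muscleblind genes encode zinc finger proteins that are sequestered by expanded repeats in myotonic dystrophy. Mbnl2, whose loss in mice alters splicing in the brain, measured 11.6 and 10.9 FPKM in the treated libraries and 8.36 and 7.93 in the untreated ones. The treated libraries were clearly apart from the untreated ones, and the ratio was 1.38 in replicate 1 and 1.38 in replicate 2. The log2 change of Mbnl2 was 0.42 ± 0.06 (SE), with a limma adjusted p of 0.0701, and 0.0117 with the block, under which it rose. A log2 rise of at least this size was seen in 134 of the 11924 tested genes, or 1.12%. Mbnl2 was the gene of the 10 with the largest absolute change in the fit and in all alternatives tried. Its locus is chr14:120674891-120830920 (mm9). In this bulk RNA, a change in the share of cells that express the gene and a change in RNA per cell cannot be told apart.

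Mbnl1, the muscleblind gene best studied in muscle, measured 3.67 and 3.35 FPKM in the treated libraries and 3.36 and 3.37 in the untreated ones, so the groups overlapped. The log2 change of Mbnl1 was 0.04, with a 95% interval from -0.15 to 0.24, and was -0.0077 without doxycycline replicate 1. Mbnl3, which in mouse muscle cells inhibits differentiation, measured 3.36 and 3.36 FPKM in the treated libraries and 3.57 and 3.71 in the untreated ones. The treated libraries lay below the untreated ones, with a log2 change of -0.09 (interval -0.27 to 0.09) and a limma adjusted p of 0.613. Mbnl1 lies at chr3:60305174-60433670 and Mbnl3 at chrX:48466671-48559009 (mm9).

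The measured makeup of the family differed between the groups, with 2 libraries in each. Mbnl2 held 62.2% and 62.0% of the summed MBNL FPKM with doxycycline and 54.7% and 52.8% without it, a difference of 8.32 points. The share of Mbnl3 was 18.1% and 19.06% against 23.4% and 24.7%, and that of Mbnl1 19.8% and 19.0% against 21.98% and 22.5%. None of the 3 shares overlapped between groups, but they sum to 100% and are not separate observations: a higher Mbnl2 lowers the share of Mbnl1, whose own level overlapped between groups. Among the levels of all tested genes, 23.5% were apart and higher with doxycycline and 24.9% apart and lower, so separation by itself was common. The summed MBNL level was 18.6 and 17.6 FPKM with doxycycline and 15.3 and 15.0 without it, 1.195-fold by means. The two-sided exact permutation p was 0.333 for each share and for the sum, the smallest that 2 libraries against 2 can give. How the authors' counting treated reads that fit more than one paralogue is not given in the sources used here.

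**Figure D3:**
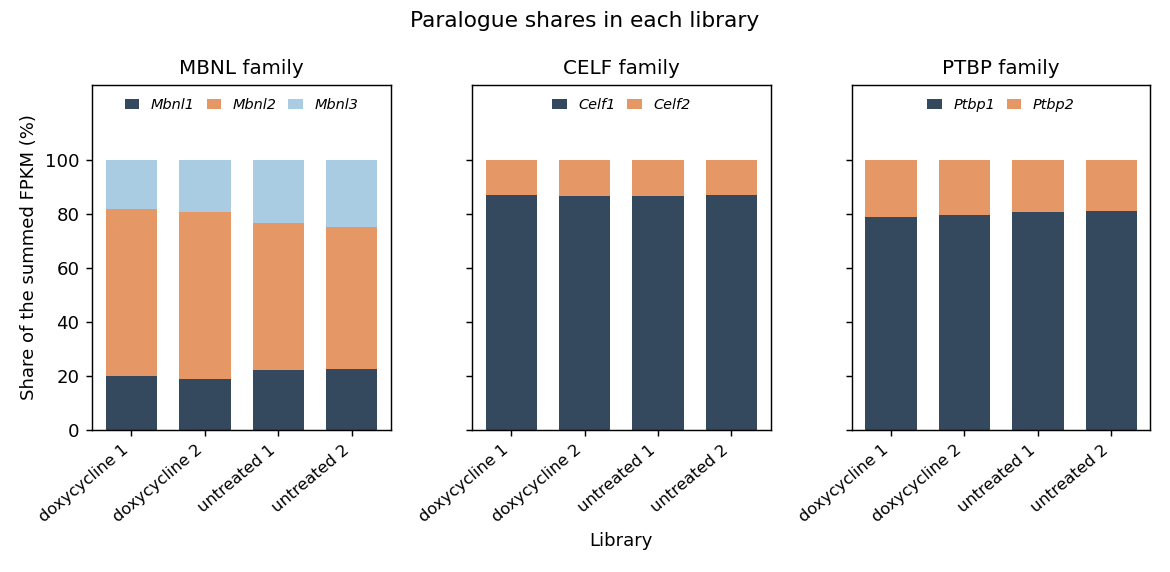
Share of each paralogue in the summed FPKM of its family (percent) in each library, for MBNL, CELF and PTBP; each stacked bar is 1 library. The Mbnl2 band widens from 54.7% and 52.8% in the untreated libraries to 62.2% and 62.0% with doxycycline, while the CELF bars differ by less than 1 point.

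The groups overlapped for both Celf1 and Celf2. Celf1, which binds GU-rich RNA and also promotes decay of transcripts that carry it, measured 44.5 and 40.1 FPKM in the treated libraries and 42.4 and 44.3 in the untreated ones. The highest and the lowest value were both from treated libraries, and the pairs moved in opposite directions, by 0.07 in replicate 1 and -0.14 in replicate 2 on the log2 scale. It lies at chr2:90780615-90857210 (mm9). Its fitted log2 change was -0.04 with an interval from -0.18 to 0.11. Without doxycycline replicate 2 it was 0.04. Celf2, its paralogue known for splicing control in T cells and heart, measured 6.48 and 6.18 FPKM in the treated libraries and 6.41 and 6.52 in the untreated ones, which overlap. Its log2 change was -0.03, with an interval from -0.19 to 0.14, and 0.0037 without doxycycline replicate 2. Its locus, chr2:6460744-7317825 (mm9), has 4 annotated start sites in the deposited table.

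Celf1 held 87.3% and 86.7% of the summed Celf1 and Celf2 FPKM with doxycycline and 86.9% and 87.2% without it (exact permutation p = 1). The 4 remaining CELF genes were low in every library. Celf3 measured 1.26 and 1.48 FPKM in the treated libraries and 1.203 and 1.18 in the untreated ones, which do not overlap (limma adjusted p = 0.611). Celf3 and Celf4 lay between 0.944 and 1.48 FPKM, and Celf5 and Celf6 between 0.407 and 0.50. The Celf1 share was between 80.3% and 82.2% when all 6 were summed.

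Neither Ptbp1 nor Ptbp2 passed the test, with or without the block, and their fitted changes were small and of opposite sign. Ptbp1, the general PTB protein, whose repression of an exon of Ptbp2 sends that transcript to decay, measured 111 and 112 FPKM in the treated libraries and 119 and 117 in the untreated ones. Both treated libraries were lower, and the ratio of means was 0.946. It lies at chr10:79317350-79327178 (mm9). The log2 change of Ptbp1 was -0.08 ± 0.04 (SE), with an interval from -0.17 to 0.01 and a limma adjusted p of 0.378, or 0.243 with the block. Ptbp2, the paralogue of neurons and germ cells, measured 29.9 and 28.8 FPKM in the treated libraries and 28.2 and 27.1 in the untreated ones. Both treated libraries lay above both untreated ones, by a ratio of means of 1.06. It lies at chr3:119421660-119486306 (mm9). The log2 change of Ptbp2 was 0.08 ± 0.05 (SE), with an interval from -0.03 to 0.19 and a limma adjusted p of 0.445, or 0.287 with the block.

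Within the pair, Ptbp2 held 21.2% and 20.5% of the summed FPKM with doxycycline and 19.2% and 18.8% without it. The groups did not overlap and differed by 1.82 points, with an exact permutation p of 0.333. Groups without overlap were also common among the levels of all tested genes, at 23.5% higher and 24.9% lower. The ratio of Ptbp1 to Ptbp2 was 3.72 and 3.88 with doxycycline and 4.21 and 4.32 without it. The remaining family member, Ptbp3, listed under its older symbol Rod1, measured 43.1 and 38.9 FPKM in the treated libraries and 39.6 and 39.7 in the untreated ones, more abundant than Ptbp2 in every library. With it in the family, Ptbp1 held 60.4% and 62.3% with doxycycline and 63.7% and 63.7% without it.

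Qk, the quaking gene of the STAR family, known for control of splicing and transcript stability in myelin-forming cells, measured 27.7 and 27.6 FPKM in the treated libraries and 29.8 and 29.1 in the untreated ones. The treated libraries lay below the untreated ones and close to each other. The gene lies at chr17:10399336-10512226 (mm9). The log2 change of Qk was -0.09 ± 0.04 (SE), with an interval from -0.19 to 0.01, and a limma adjusted p of 0.382, or 0.262 with the block.

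Rbm38 encodes a protein with a single RNA recognition motif that stabilises the transcript of the p21 cell cycle inhibitor, and is itself known as a target of p53. It measured 123 and 129 FPKM in the treated libraries and 123 and 122 in the untreated ones. Treated replicate 1 stood at 1.003 times its untreated partner, while treated replicate 2 was the highest of the 4 libraries. The gene lies at chr2:172847403-172860232 (mm9). The ratio of means was 1.03, and the log2 change of Rbm38 was 0.04 ± 0.04 (SE), with an interval from -0.06 to 0.14 and a limma adjusted p of 0.669. Under quantile normalization the sign turned, to -0.0076. Other p53 targets moved further in the same libraries. Of 18 tested genes on a list of p53 targets that leaves out Rbm38, 6 rose, or 15 with the block, and none fell, against 0.218% and 2.73% of all tested genes that rose. Their median log2 change was 0.53, and the cyclin G gene Ccng1 moved most, with 52.2 and 69.5 FPKM in the treated libraries and 18.96 and 23.6 in the untreated ones. The list was chosen with earlier results of these data known, and Ccng1 was named after its values were seen. The contrast with all tested genes is therefore a description.

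Without the block no gene passed on a wider list, mostly of splicing regulators of related kinds. The list also holds genes better known for other roles, such as Msi1 below. Of its 54 symbols 50 were listed and 38 tested, and 0 passed limma's test, with 6 at an unadjusted p under 0.05. Of these 3 were higher and 3 lower, 7.89% each, close to the 8.46% and 6.63% of all tested genes. Its median log2 change was 0.03, with a range from -0.24 to 0.22, so the change of Mbnl2 lay outside the range of all 38. Of the 38, 15 were higher and 12 lower in both pairs (39.5% and 31.6%, near the 32.8% and 34.0% of all tested genes). With the block 1 fell, the Musashi gene Msi1, a translational regulator of neural and germline stem cells. It measured 43.4 and 39.6 FPKM in the treated libraries and 50.3 and 46.7 in the untreated ones, a log2 change of -0.22 ± 0.06 (SE). Its limma adjusted p was 0.209, or 0.0277 with the block.

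Among the 38 tested, the largest other changes were those of Nova2, a regulator of neuronal exons, Rbmx and Rbm20, which controls titin splicing in the heart. Nova2 measured 3.16 and 3.25 FPKM in the treated libraries and 4.02 and 3.88 in the untreated ones (log2 change -0.24, limma adjusted p = 0.244). Rbmx was at 4.08 and 4.02 against 3.15 and 3.53 FPKM (0.22, adjusted p = 0.298), and has close retrocopies that can share its reads. Rbm20 was at 1.37 and 1.51 against 1.12 and 1.17 FPKM (0.18, adjusted p = 0.402). The most abundant were Sfpq, at 174 to 186 FPKM, the poly(C)-binding protein genes Pcbp2 and Pcbp1, at 143 to 164 and 100.1 to 106, and the nuclear matrix gene Matr3, at 97.7 to 105. Pcbp2 was higher in both treated libraries, with a log2 change of 0.14 (limma adjusted p = 0.233), and the other 3 had log2 changes between -0.05 and 0.03.

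**Figure D4:**
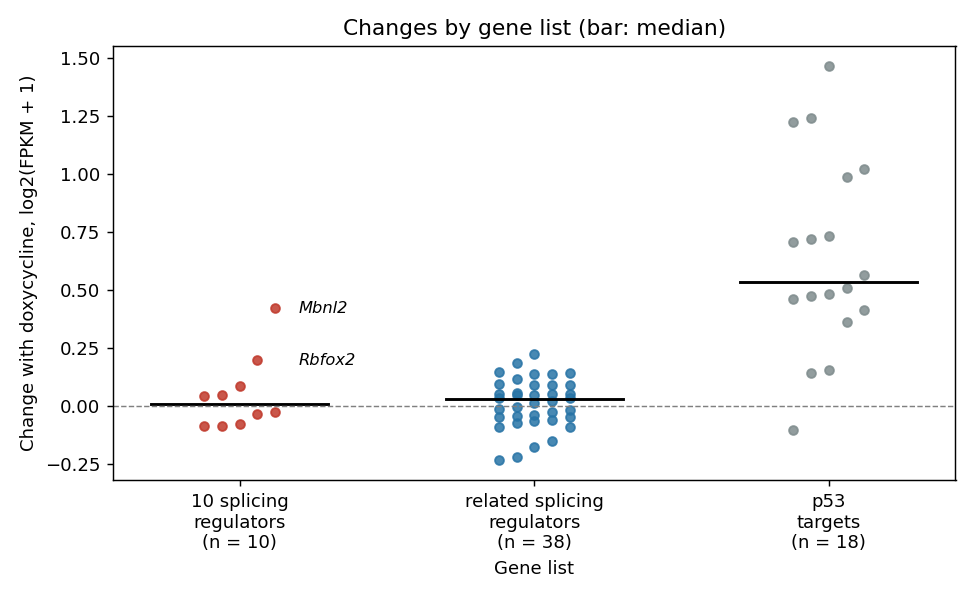
Fitted log2 changes with doxycycline of the 10 genes, the 38 related splicing regulators tested and the 18 p53 targets tested; each point is 1 gene and bars are medians. The medians are 0.0074, 0.03 and 0.53. Mbnl2 at 0.42, the largest of the 10, lies above all 38 related genes, and 1.12% of all tested genes rose by at least that much.

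Markers of other cell types give the setting for the change of Mbnl2, a gene that many cell types express. The 10 fibroblast feeder markers had a median log2 change of 0.13, and none passed in either fit. Their sums overlapped between groups but were higher with doxycycline within each pair. In both pairs 6 of the 10 markers were higher and 2, Fn1 and Pdgfra, lower, against 32.8% and 34.0% of all tested genes. Lum came closest to the threshold with the block (limma adjusted p = 0.0921). Of 7 Sertoli markers in the files 3 were tested, with a median of 0.26, and their sums were 8.48 and 10.3 FPKM with doxycycline and 6.69 and 8.23 without it. Sox9 led them with 2.69 to 4.32 FPKM, Wt1 lay between 1.23 and 1.54, and Amh, Cldn11 and Gata4 stayed at or under 0.216. All but Wt1, so 6 of the 7, were higher with doxycycline in both pairs, against 32.8% of all tested genes. Of these 6, Amh, Cldn11, Gata4 and Amhr2 lay under the filter and were not tested. Of 7 neuron markers 3 were tested, with a median of 0.13. The 7 summed to 7.55 and 8.81 FPKM with doxycycline and 7.16 and 6.87 without it, led by Tubb3 at 2.01 to 3.55. In both pairs 3 of the 7 were higher and 1, Syp, was lower. Syp was not tested, and measured 0.588 and 0.709 FPKM with doxycycline and 0.886 and 0.974 without it. Of 8 macrophage and blood markers 2 were tested (median 0.19), and the 8 summed to 5.67 and 8.47 FPKM with doxycycline and 6.44 and 5.70 without it, led by Cd68, with Ptprc at 0.135 or less and Hbb-b1 at 0 in all libraries. Hba-a1 of that list measured 0.412 and 2.62 FPKM in the treated libraries and 1.26 and 0.649 in the untreated ones. The Leydig and peritubular list summed to between 11.1 and 17.0 FPKM (2 tested, median -0.15), led by Acta2, with Cyp17a1 and Hsd3b1 at 0. The muscle list summed to 2.53 and 3.004 FPKM with doxycycline and 3.47 and 3.45 without it (1 tested, Myh3, at -0.30), with Actc1 at 0. The germ cell markers had a median of -0.05. None passed without the block, and 1 fell with it, Nanos3 (log2 change -0.30, limma adjusted p = 0.0413 with the block). In both pairs 8 of the 15 were lower and 4 higher, or 53.3% and 26.7%, against 34.0% and 32.8% of all tested genes. The part of these cell types in the change of Mbnl2 was not tested.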

How the data were processed

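RNA-seq libraries were grouped by the doxycycline treatment in the titles. The submitters' processing notes name TopHat2 2.0.6, Cufflinks 2.0.2, Cuffdiff and mm9, with no role or order. Each library has its own deposited table of FPKM by gene, in Cufflinks style per the file headers, where the authors scaled fragments for length and library size. Annotation, strandedness and further scaling are not given in the sources. These tables list their lines in different orders, so they were joined by symbol and FPKM was summed per symbol. Loci are in the table of doxycycline replicate 1 (mm9); all 10 genes have status OK there.

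Genes averaging at least 1 FPKM entered limma 3.58.1 (R 4.3.3), run on log2(FPKM + 1), a scale that understates changes of low genes, with an intensity trend, two-sided, Benjamini-Hochberg adjustment over all 11924 and a threshold of 0.05; folds are ratios of mean FPKM. The code was tested on simulated data. With the block, the replicate number is a covariate. Same-numbered libraries are taken as the same clone because 2 clones are named for each condition, although the titles do not state it; their deviations from the group means correlated at 0.215 across genes. Residual degrees of freedom were 2, and 1 with the block. Library correlations ran from 0.9904 to 0.9958, so none was a copy of another.

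The 3′ UTRs come from GENCODE M21 (GRCm38), matched for 88.2% of tested genes and used for seed matches only. Ptbp3 was matched to Rod1 by RefSeq synonyms. The named genes are the 10 members, from the related list those past the threshold in either fit, the 4 largest changes and the 4 highest levels, and each cell type's most abundant marker; Ccng1, the RBFOX, CELF and PTB genes outside the 10 and the other markers named were added after their values were seen. Members and lists (related splicing regulators, p53 targets, and markers of germ cells, fibroblast feeders, Sertoli, Leydig and peritubular, macrophage and blood, neuron and muscle cells) were chosen with earlier results of these data known. Other scripts ran in Python 3.11.15.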

Additional observations from a re-analysis of the deposited data

How the results depend on the processing

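The counts over all genes moved with the settings. Genes that rose numbered 26, and 0 with no filter on low values, 76 with a mean of at least 5 FPKM, 40 with quantile normalization, 0 with no intensity trend and 325 with the replicate block. Genes that fell numbered 7, and 1, 12 and 2 with no filter, the stricter filter and no trend, and 116 with the block. Leaving out 1 library gave 0 to 54 that rose and 2 to 6 that fell. Of the 10 splicing regulators 0 passed, and 1 with the stricter filter and 1 with the block, Mbnl2 in both (adjusted p = 0.0470 and 0.0117). Its log2 change ran from 0.38 to 0.46 over all alternatives and its adjusted p from 0.0117 to 0.289, the highest without untreated replicate 1. Of the related list 1 fell with the block.

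Of 138 refits of the 10 genes, 132 kept the direction and the side of the threshold, 2 brought Mbnl2 past it and 4 turned the sign of a change near 0. These were Rbm38 under quantile normalization (-0.0076) and 3 fits without 1 library, where Mbnl1 ran from -0.0077 to 0.10, Celf1 from -0.11 to 0.038 and Celf2 from -0.056 to 0.0037. The difference in the Celf1 share ran from -0.37 to 0.27 points and that of Celf2 from -0.27 to 0.37 without 1 library, and that of Celf2 was -0.0078 with the wider family. The MBNL and PTBP shares kept their direction. The causes were not tested. Mbnl1 and Mbnl3 have no value under the stricter filter. Lines could not be matched between tables, so the highest line per symbol was taken within each library. Rbfox2 missed the threshold in every setting, with an adjusted p from 0.0719 to 0.484. With 2 libraries a group, and with low values resting on few reads, changes smaller than the intervals given were not detectable.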

Other observations

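Several related splicing regulators lay under the filter of 1 FPKM and were not tested. Rbm47, a partner of RNA editing in gut epithelium, measured 0.808 and 0.923 FPKM in the treated libraries and 0.548 and 0.612 in the untreated ones. Khdrbs2, of the same STAR family as Qk, was at 1.27 and 0.976 FPKM against 0.741 and 0.689. Both were named after their values were seen, and at these levels a few reads can move a value.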
